A study of Mus musculus with 12 samples.

Results

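Polycomb proteins keep developmental genes silent, and 10 genes of this system were followed through all 12 libraries of the series: the Polycomb repressive complex genes Bmi1, Ring1, Rnf2, Cbx7, Ezh1, Ezh2, Eed and Suz12, and the H3K27 demethylase genes Kdm6a and Kdm6b. They were picked by name as core subunits, as the opposing enzymes and, for Bmi1, as a known barrier to cardiac reprogramming, and they are 10 of the 23423 genes in the table. All 10 passed the filter on low values. The series measured polyadenylated RNA with a stranded mRNA kit in 6 groups of 2 libraries, to serve as a bulk reference for single-cell work and to study Ptbp1 silencing in reprogramming.

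Every group started from CD1 mouse hearts taken at postnatal day 1.5. In 4 groups, cardiac fibroblasts were cultured, transduced with virus and harvested at day 3. The first of these received the MGT retrovirus, which carries Mef2c, Gata4 and Tbx5, transcription factors of the heart, together with a lentiviral short hairpin against Ptbp1 (MGT with shPtbp1). The second received MGT with a lentiviral non-targeting hairpin (MGT with shNT), the third MGT without a hairpin (MGT alone), and the fourth a control retrovirus. The control retrovirus is named lacZ in the titles and an empty vector in other labels, and is called control vector here. One shPtbp1 library names Ptbp2 in 1 label, while its title and treatment label name Ptbp1. The other 2 groups were freshly isolated: cardiomyocytes from a commercial neonatal isolation system, and fibroblasts sorted magnetically on the surface protein Thy1. No label tells whether the 2 libraries of a group are separate animals or cultures, and the p-values therefore reflect library-to-library spread that may be technical.

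Polycomb repressive complex 1 (PRC1) places ubiquitin on histone H2A through the ligases Ring1 and Rnf2, and Bmi1 is a Polycomb ring-finger protein that pairs with them in the canonical form of the complex. Polycomb repressive complex 2 (PRC2) methylates lysine 27 of histone H3 (H3K27) through Ezh1 or Ezh2 and needs Eed and Suz12 to do so, and chromobox proteins such as Cbx7 carry PRC1 to that mark. Kdm6a and Kdm6b remove methyl groups from the same lysine. In mouse fibroblasts, loss of Bmi1 is known to ease conversion to cardiomyocyte-like cells, and Ezh2 is known as the methyltransferase that prevails in dividing cells, with Ezh1 more prominent in resting ones.

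In GENCODE (GRCm38), the PRC1 genes lie at chr2:18677018-18686629 (Bmi1, plus strand), chr17:34020792-34024680 (Ring1, minus), chr1:151458004-151500955 (Rnf2, minus) and chr15:79915807-79971119 (Cbx7, minus). The PRC2 genes lie at chr6:47530139-47595341 (Ezh2, minus), chr11:101191115-101226463 (Ezh1, minus), chr7:89954654-89980983 (Eed, minus) and chr11:79993106-80034123 (Suz12, plus). Kdm6b lies at chr11:69398508-69413675 on the minus strand and Kdm6a on the X chromosome. The 3 genes Ezh1, Suz12 and Kdm6b share chromosome 11.

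The start regions of 9 of the 10 genes were matched in RefSeq (GRCm38.p6), as windows of 250 bases before to 50 after the transcription start. They held 17 to 41 CpG dinucleotides per window, against a median of 7 and quartiles of 3 and 20 over 32851 promoters. A search on both strands for words bound by E2F factors (TTTCCCGC, TTTCGCGC, TTTGCCGC and TTTGGCGC), which regulate many cell cycle genes, found one in 2 of the 9, Suz12 and Ezh2, against 2.26% of all promoters. Every one of these words holds a CpG, and the 9 windows hold more CpG than the median promoter. The share over all promoters is therefore not matched to them, and no enrichment is claimed. The NRF1 word GCGCATGC, in 2.71% of promoters, and the ETS word CCGGAAG, in 8.86%, were in none of the 9 windows. The 2 sequences with an E2F word are shown because both genes encode PRC2 subunits whose levels differed between cultured groups, with the word in capitals. For Suz12 the 250 bases upstream of the start are given (chr11:79992856-79993105, plus strand), where the word begins 219 bases before the start. For Ezh2 a stretch of 30 bases is given (chr6:47595011-47595040, minus strand), the last 10 before the RefSeq start and the first 20 of the RefSeq transcript. The word begins at base 4 of that transcript. The GENCODE gene of Ezh2 begins farther upstream, at chr6:47595341, so this position depends on the annotation. For Cbx7 the GENCODE gene also begins upstream, at chr15:79971119, outside the window used (chr15:79932597-79932896).
Suz12: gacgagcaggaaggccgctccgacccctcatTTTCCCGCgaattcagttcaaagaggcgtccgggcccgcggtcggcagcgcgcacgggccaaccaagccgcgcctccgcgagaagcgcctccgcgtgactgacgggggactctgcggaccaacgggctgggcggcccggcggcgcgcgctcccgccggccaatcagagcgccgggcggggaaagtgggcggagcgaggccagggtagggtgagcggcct
Ezh2: ttgggttgctgcgTTTGGCGCtcggtccgg
These matches describe letters in a window, and binding was not measured.

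Between 49320858 and 94005212 reads per library were assigned to genes. Levels are scaled CPM (CPM rescaled with library factors of 0.966 to 1.06), and log2 fold changes were computed on log2(scaled CPM + 0.5) with their standard error (SE), so changes of low genes are understated. A gene was called when its limma p, adjusted with Benjamini-Hochberg over all 13977 genes tested, was below 0.05. Cbx7 was covered by 95 to 267 reads per library and the other 9 genes by 887 to 24829. In the hairpin check, Ptbp1 stood at 81.1 and 78.5 scaled CPM with shPtbp1, against 360 and 365 with shNT. The libraries labelled control vector held more RNA of the MGT factors than fresh fibroblasts. Tbx5 had 645 and 678 scaled CPM in control vector cultures, against 6.94 and 7.52 in fresh fibroblasts (log2 fold change 6.42, limma adjusted p = 3.3e-25). Mef2c and Gata4 were also higher there, by 1.21 and 0.71 (limma adjusted p = 3.21e-16 and 2.69e-12). The 8 cardiomyocyte markers summed to 13204 to 13897 scaled CPM in cardiomyocytes and 1349 to 1372 in fresh fibroblasts. The 8 fibroblast markers summed to 17905 to 18028 and 33381 to 34276 in the same groups, and the 7 endothelial markers to 3780 to 3793 and 2971 to 3023. No marker of these 3 lists was at 0 in any library, and the share of other cell types in either fresh group was not estimated. In bulk RNA, fewer cells of a type and less RNA per cell cannot be told apart.

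Levels per kb of exon placed the 10 genes in a partly stable order. Cbx7 was lowest in every group, at 0.491 to 0.833 scaled CPM per kb (group means), and Ezh1 was next lowest in every group, at 4.49 to 7.51. Rnf2 held the second place in every group, at 14.3 to 20.0. The first place went to Eed in the 4 cultured groups, at 17.0 to 20.1, and to Kdm6b in both fresh groups, at 34.9 in cardiomyocytes and 39.7 in fibroblasts. Over the 6 groups, Kdm6b had the widest range of group means, 3.29-fold, followed by Kdm6a at 2.25-fold and Suz12 at 1.86-fold. Ring1 had the narrowest, 1.22-fold.

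**Figure D1:**
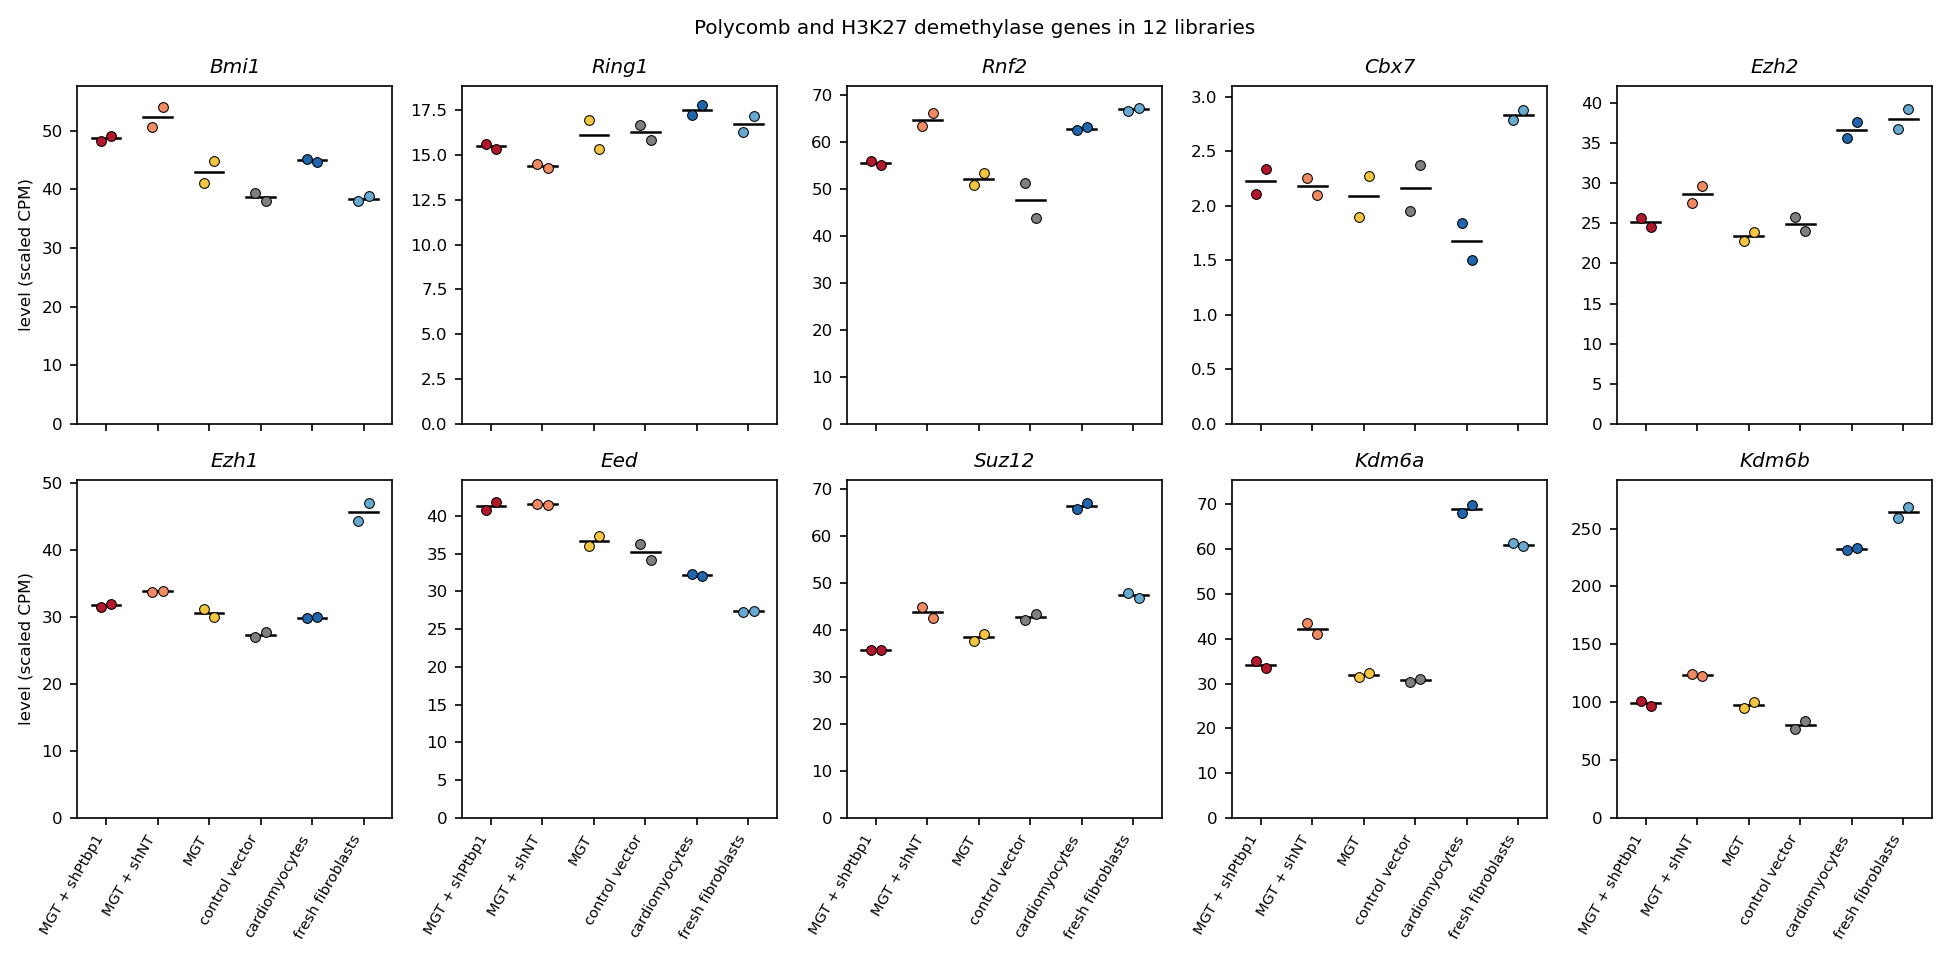
Level of each gene in scaled CPM (vertical axis, from 0) in the 12 libraries by group; points are libraries and lines are group means of 2. Kdm6a and Kdm6b are higher in all 4 fresh libraries than in any cultured one, and Eed is lower in the fresh libraries than in any cultured one.

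The largest changes among these genes, those of Kdm6b and Kdm6a, lay between control vector cultures and fresh fibroblasts. Suz12, Cbx7, Bmi1 and Ring1 differed more in other comparisons. Against fresh fibroblasts, 7 of 10 genes were lower and 1 was higher, with a median log2 fold change of -0.41 against 0.0038 over all genes tested. Of all genes, 43.4% were called lower, 43.5% higher and 86.9% in either direction, so a call alone says little here. Both demethylases, both Ezh enzymes and Rnf2 were lower, while Eed was higher. Days in culture, time since isolation and sorting, transduction and cell composition differ together between these groups and cannot be told apart. The raised Tbx5, Mef2c and Gata4 of the control vector libraries differ with them, and their part in the results was not tested.

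Kdm6b, a demethylase known to be inducible in many cell types, had 76.5 and 83.9 scaled CPM in control cultures, against 259 and 268 in fresh fibroblasts. The level in control cultures was 0.305 times that in fresh fibroblasts (log2 fold change -1.71, SE 0.0423, limma adjusted p = 5.58e-18). Only 14.1% of the genes tested had a larger absolute change. Kdm6a had 30.4 and 31.1 scaled CPM in control cultures, against 61.3 and 60.8 in fresh fibroblasts (log2 fold change -0.98, SE 0.045, limma adjusted p = 1.02e-13). The groups did not overlap for either gene, which held for 93.1% of all genes tested.

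Kdm6a lies on the X chromosome (chrX:18162575-18279936, GRCm38), and its Y-linked homologue is Uty. Uty had 8.76 and 7.13 scaled CPM in control cultures, against 16.1 and 14.9 in fresh fibroblasts (log2 fold change -0.93, limma adjusted p = 1.15e-08). Of the 5 sex-linked genes listed, 5 were lower in control cultures, the Y-linked Kdm5d by -0.98, Eif2s3y by -0.80 and Ddx3y by -0.75 on the log2 scale. Xist, a gene of female cells, was lower by -0.24 (limma adjusted p = 0.000135). The list summed to 775 to 813 scaled CPM in control cultures and 974 to 993 in fresh fibroblasts, a sum that adds Xist to Y-linked genes and so does not tell the sexes apart. The part of a difference in the sexes of the pups in the Kdm6a result was not tested.

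The catalytic subunits of PRC2 were both lower in culture. Ezh1 had 26.97 and 27.7 scaled CPM in control cultures, against 44.3 and 47.0 in fresh fibroblasts (log2 fold change -0.73, SE 0.0474, limma adjusted p = 2.36e-11). Ezh2 had 25.8 and 24.0 scaled CPM in control cultures, against 36.8 and 39.3 in fresh fibroblasts (log2 fold change -0.60, SE 0.0574, limma adjusted p = 8.56e-09). Neither gene's groups overlapped. The proliferation list moved beside Ezh2, with 15 of 20 genes lower and 2 higher, a sum of 1262 to 1265 scaled CPM in control cultures and 1689 to 1722 in fresh fibroblasts, and Mki67 at a log2 fold change of -0.78. Its part in the Ezh2 result was not tested.

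The scaffold subunits of PRC2 went in opposite directions. Eed, which binds methylated H3K27 and stimulates the enzyme, had 36.2 and 34.1 scaled CPM in control cultures, against 27.3 and 27.4 in fresh fibroblasts (log2 fold change 0.36, SE 0.0461, limma adjusted p = 6.5e-07). Suz12, which holds the complex together, had 42.0 and 43.4 scaled CPM in control cultures, against 47.9 and 46.9 in fresh fibroblasts (log2 fold change -0.15, SE 0.0433, limma adjusted p = 0.0037). The groups overlapped for neither gene, and 86.7% of the genes tested had a larger absolute change than Suz12.

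In PRC1, the ligase Rnf2 was lower, with 51.4 and 44.0 scaled CPM in control cultures and 66.7 and 67.4 in fresh fibroblasts (log2 fold change -0.49, SE 0.0543, limma adjusted p = 7.1e-08). Its paralogue Ring1 had 16.7 and 15.8 scaled CPM in control cultures and 16.3 and 17.2 in fresh fibroblasts, and the groups overlapped (log2 fold change -0.04, SE 0.0657, limma adjusted p = 0.576). Bmi1 also overlapped, with 39.3 and 38.0 scaled CPM in control cultures and 38.0 and 38.8 in fresh fibroblasts (log2 fold change 0.0099, SE 0.0486, limma adjusted p = 0.851). Among the 10 genes, Bmi1 had the smallest measured difference between these groups under the scaling used, and without scaling its log2 fold change was -0.10.

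Cbx7 had 1.95 and 2.37 scaled CPM in control cultures, against 2.79 and 2.88 in fresh fibroblasts (log2 fold change -0.33, SE 0.123, limma adjusted p = 0.0178). This call was the least secure of the 8. With quantile normalization the Cbx7 log2 fold change was 0.16 (limma adjusted p = 0.25), without control vector replicate 1 it was -0.21 (limma adjusted p = 0.187), and without fresh fibroblast replicate 2 it was -0.32 (limma adjusted p = 0.07).

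**Figure D2:**
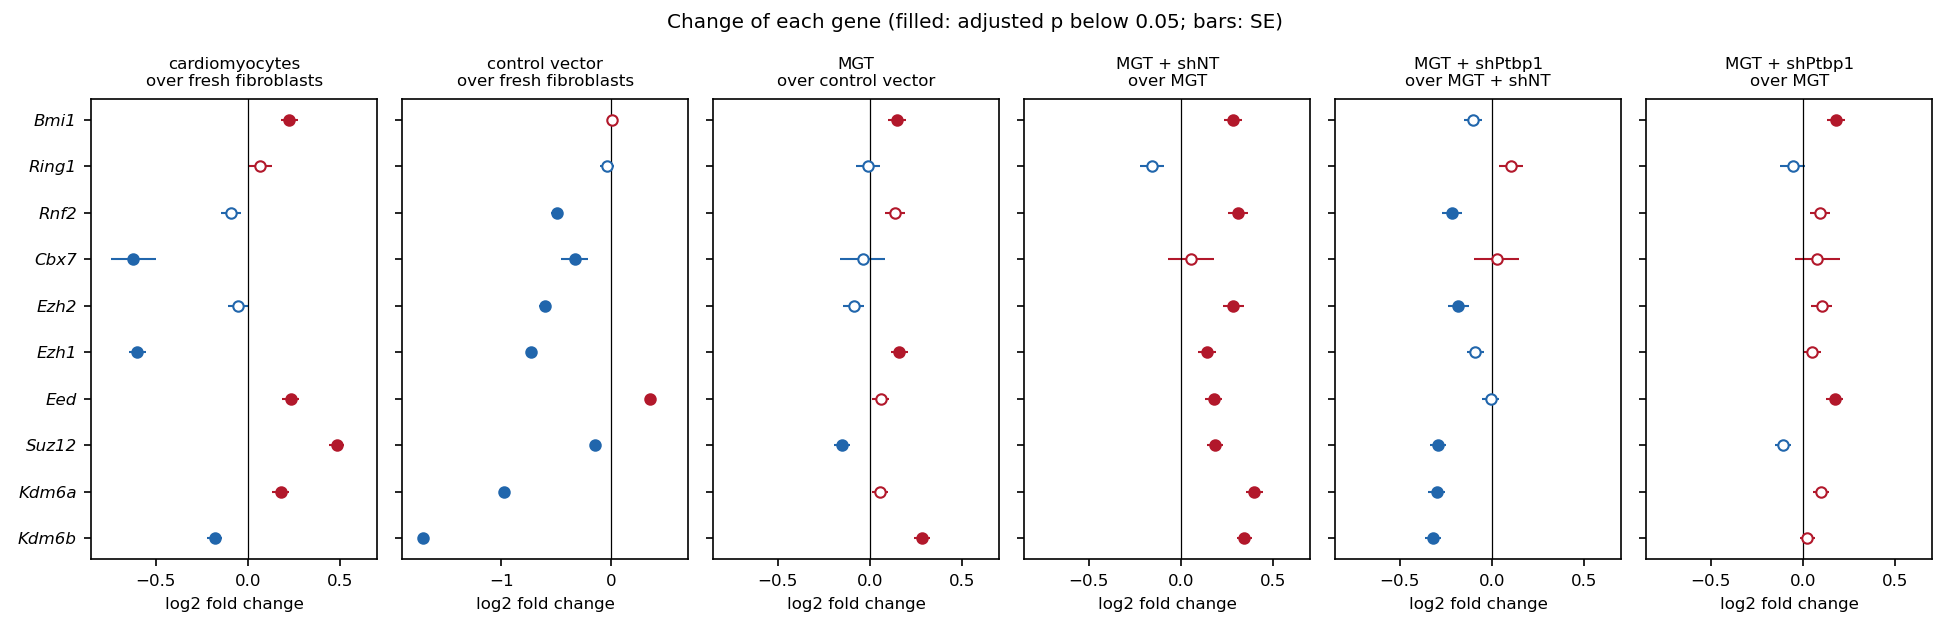
Log2 fold change of each gene (horizontal axis, bars are SE) in 6 comparisons, each named above its panel as first group over second; filled points had a limma adjusted p below 0.05, red is above 0 and blue below. The second panel has a wider axis, because Kdm6b reaches -1.71 there.

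Most other genes of the complexes were also lower in control cultures. The counts of each list stand against 43.4% of all genes called lower in this comparison, 43.5% higher and 86.9% in either direction. Of 23 other PRC1 genes, 15 were lower in control cultures and 6 were higher (median log2 fold change -0.36). Pcgf5, a Polycomb ring-finger protein of variant PRC1, had 35.4 and 38.7 scaled CPM in control cultures, against 3.89 and 3.91 in fresh fibroblasts (log2 fold change 3.09, limma adjusted p = 3.43e-20). Scml2, the chromobox gene Cbx2 and the polyhomeotic gene Phc1 were lower by -1.76, -1.60 and -1.16 on the log2 scale. The Pcgf5 and Bmi1 proteins are alternative partners of the same ligases, and Bmi1 overlapped between these groups.

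Of 8 other PRC2 genes, 5 were lower and 2 were higher (median -0.60). Jarid2, which recruits PRC2 to its targets, had 14.5 and 15.4 scaled CPM in control cultures, against 79.0 and 82.4 in fresh fibroblasts (log2 fold change -2.39, limma adjusted p = 2.78e-18). Lcor and the Polycomb-like genes Phf1 and Mtf2 were lower by -1.14, -0.66 and -0.62. Of 7 genes for H2A deubiquitinases and their cofactors, 5 were lower and 1 was higher. The cofactor gene Asxl3 led them, with 0.743 and 0.79 scaled CPM in control cultures, against 29.9 and 28.045 in fresh fibroblasts (log2 fold change -4.54, limma adjusted p = 1.53e-17). Of 11 COMPASS genes, which methylate lysine 4 of histone H3 and include the partners of Kdm6a, 7 were lower and none was higher (median -0.80). Kmt2c, Kmt2b, Kmt2d and Paxip1 were lower by -1.31, -1.23, -1.20 and -1.14.

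**Figure D3:**
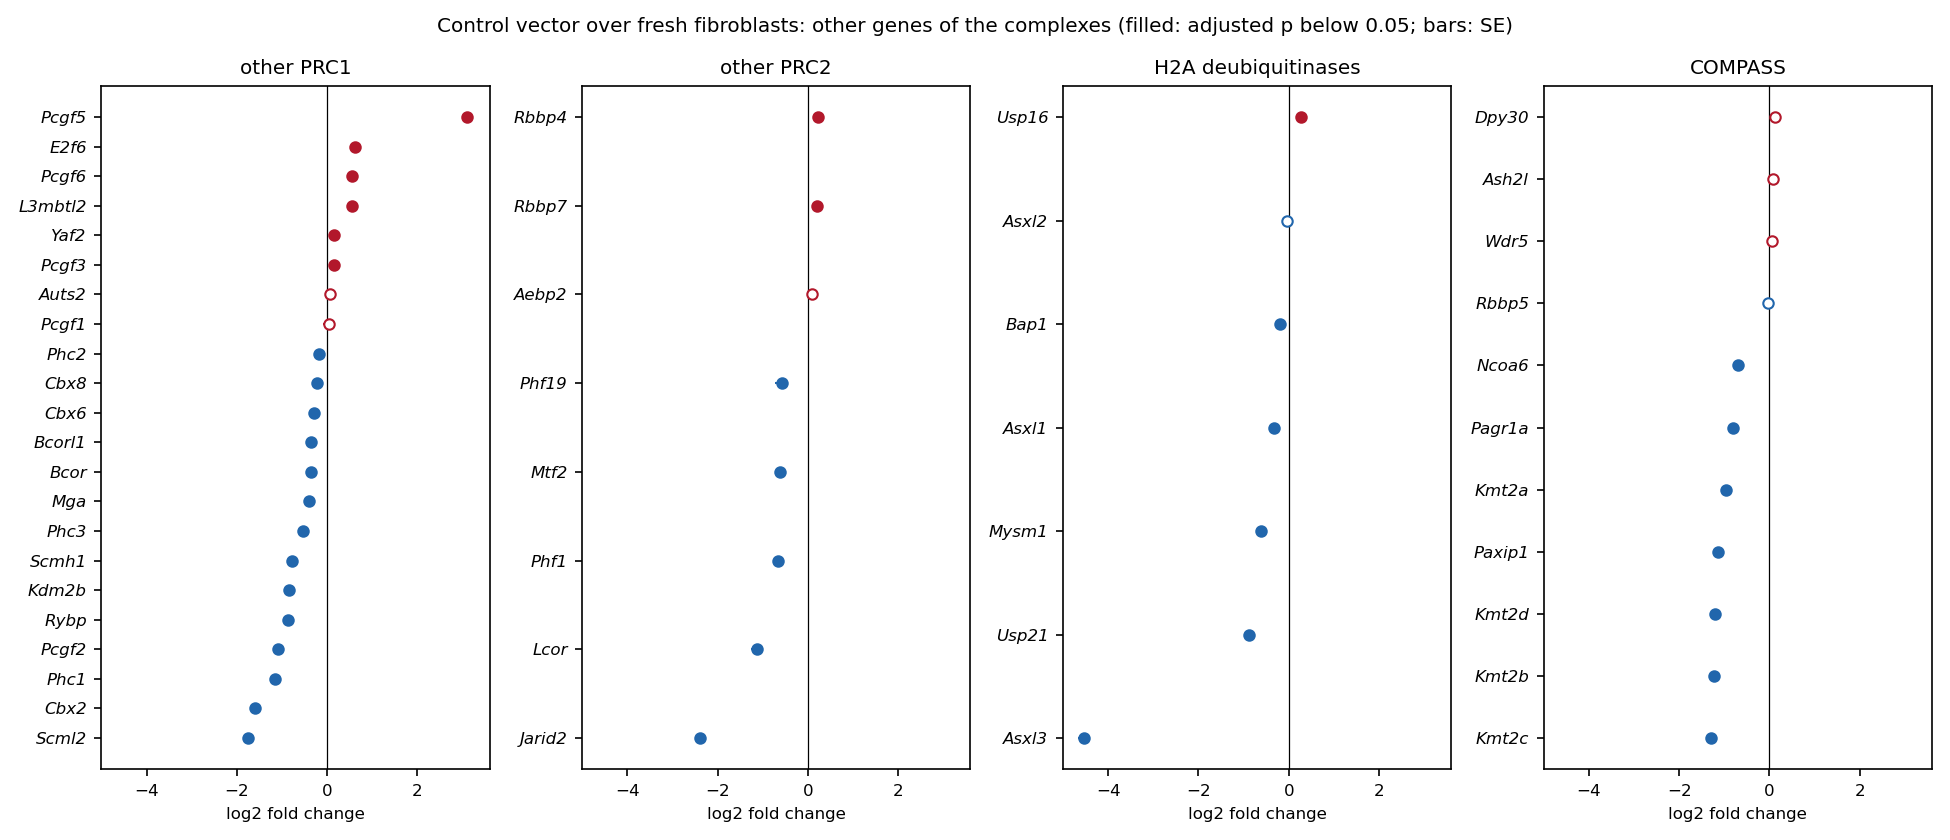
Log2 fold change (horizontal axis, bars are SE) of the other PRC1, PRC2, H2A deubiquitinase (with cofactors such as Asxl3) and COMPASS genes in control vector cultures over fresh fibroblasts, sorted within each list, with 1 PRC1 gene not drawn. Filled points had a limma adjusted p below 0.05. Pcgf5 at 3.09 and Asxl3 at -4.54 lie farthest out.

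Textbook Polycomb targets (Cdkn2a, Cdkn2b and the Hox genes) were read in the same libraries, together with the other cyclin-dependent kinase inhibitor genes listed. The cyclin-dependent kinase inhibitor Cdkn2a, the classical target of Bmi1, had 0.947 and 1.24 scaled CPM in control cultures, against 0.146 and 0.17 in fresh fibroblasts (log2 fold change 1.27, limma adjusted p = 8.33e-07). Cardiomyocytes differed from fresh fibroblasts in Cdkn2a by only 0.08 on the log2 scale (limma adjusted p = 0.655). Cdkn2a thus met the filter of 1 CPM through cultured libraries, where it was higher, and its call carries no weight of its own. Cdkn2b and Cdkn1a were higher in control cultures by 2.81 and 2.23 on the log2 scale, while Cdkn1c was lower by -4.30. Of the 5 inhibitors listed, 3 were higher and 2 were lower. Of 39 Hox genes, 9 passed the filter on low values, 8 of these were lower in control cultures and none was higher. The filter of 1 CPM in 2 libraries can be met through the fresh libraries alone. It thus favours genes that are lower in culture, and these counts carry no weight of their own. The 39 summed to 4.61 to 4.64 scaled CPM in control cultures and 25.3 to 25.6 in fresh fibroblasts, with 19 to 20 and 14 to 16 of them at 0. The 4 with the largest changes, Hoxa3, Hoxa5, Hoxb2 and Hoxb4, were lower by -2.67, -1.77, -1.63 and -1.62.

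Cell type markers moved in this comparison as well. The 7 endothelial markers were all lower in control cultures, with a sum of 113 to 119 scaled CPM against 2971 to 3023 in fresh fibroblasts. Of 6 macrophage markers 4 were higher and 1 was lower, with sums of 977 to 994 in control cultures and 526 to 532 in fresh fibroblasts. Of 8 cardiomyocyte markers 6 were lower and 2 were higher (median log2 fold change -2.94), while their sum was higher, at 2395 to 2613 scaled CPM in control cultures against 1349 to 1372 in fresh fibroblasts, with the troponin gene Tnnt2 at 3.63 on the log2 scale. The 8 fibroblast markers were split, with 3 higher and 3 lower and sums of 18340 to 20519 in control cultures and 33381 to 34276 in fresh fibroblasts. Thy1 stood at 1.06 and the matrix genes Dcn and Col3a1 at -3.35 and -2.55 on the log2 scale. Of 6 smooth muscle markers 3 were higher and 3 lower, with sums of 5608 to 5874 in control cultures and 1000 to 1022 in fresh fibroblasts. Of 5 epicardial markers 4 were lower and 1 was higher, with sums of 103 in both control libraries and 206 to 217 in fresh fibroblasts. No marker of these lists was at 0. Their part in the changes of the 10 genes was not tested.

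**Figure D4:**
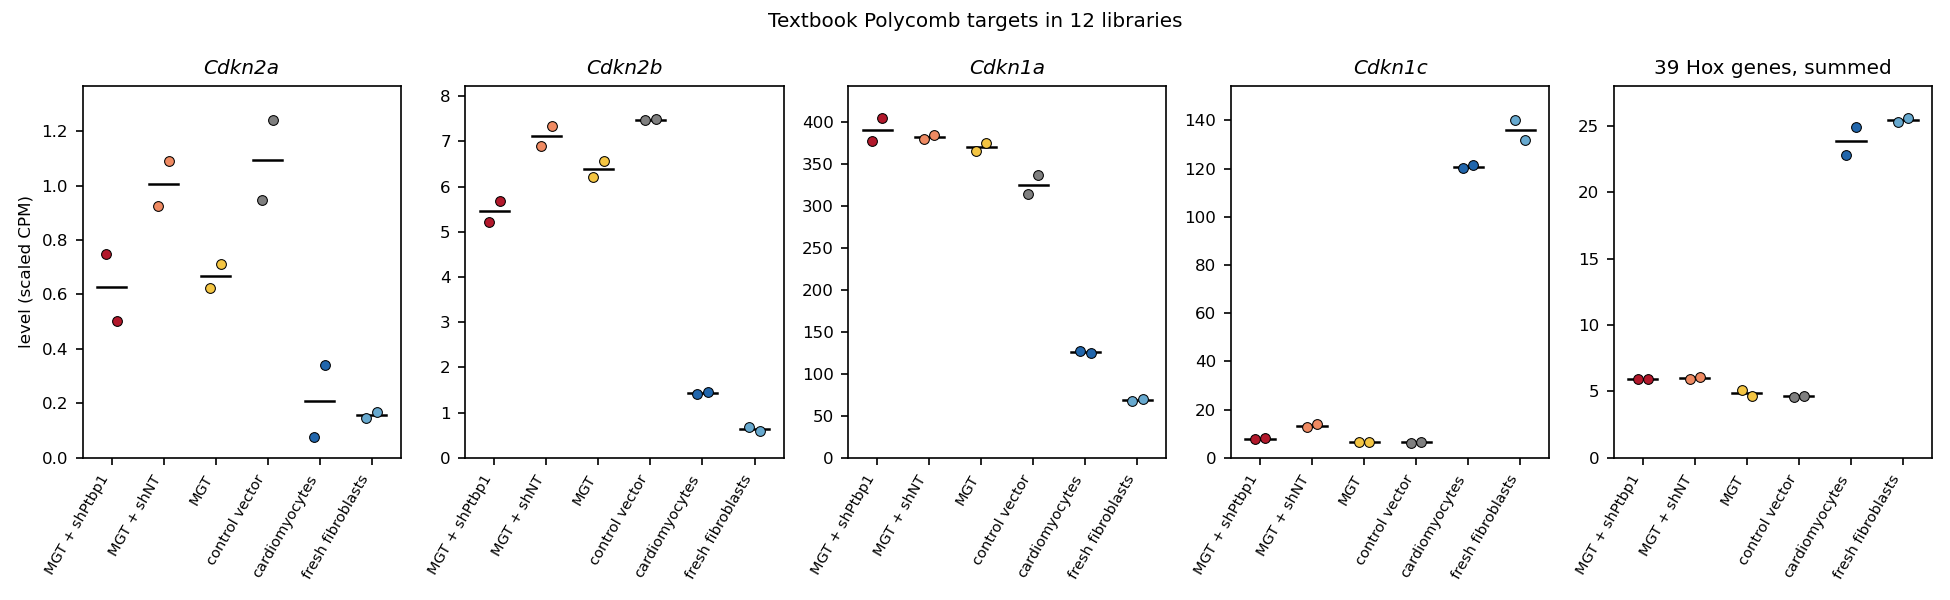
Level in scaled CPM (vertical axis, from 0) of 4 cyclin-dependent kinase inhibitor genes and the sum of 39 Hox genes in the 12 libraries by group; points are libraries and lines are means of 2. Cdkn2a, Cdkn2b and Cdkn1a are higher in every cultured library than in any fresh one, and Cdkn1c and the Hox sum are lower. Cdkn1a and Cdkn1c are drawn as further inhibitors, not as textbook Polycomb targets.

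Cardiomyocytes and fresh fibroblasts, the 2 fresh cell preparations, differed less in most of the genes, though not in Suz12, Cbx7, Bmi1 and Ring1. In cardiomyocytes 4 of the 10 genes were higher and 3 lower, with a median log2 fold change of 0.0052 against -0.046 over all genes. Of all genes tested, 35.2% were called higher, 41.7% lower and 76.9% in either direction. Suz12 had the largest increase, with 65.7 and 66.9 scaled CPM in cardiomyocytes and 47.9 and 46.9 in fresh fibroblasts (log2 fold change 0.48, SE 0.0433, limma adjusted p = 7.51e-09). Eed was higher by 0.23 (32.3 and 32.1 scaled CPM in cardiomyocytes, against 27.3 and 27.4 in fresh fibroblasts, limma adjusted p = 0.00016). Both scaffold genes were higher without overlap, which held for 88.9% of all genes.

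The PRC2 enzymes did not move with their scaffolds. Ezh1 had 29.8 and 30.0 scaled CPM in cardiomyocytes, against 44.3 and 47.0 in fresh fibroblasts (log2 fold change -0.60, SE 0.0474, limma adjusted p = 1.04e-09). Ezh2 had 35.7 and 37.6 scaled CPM in cardiomyocytes, against 36.8 and 39.3 in fresh fibroblasts, and overlapped (log2 fold change -0.05, SE 0.0574, limma adjusted p = 0.404). The ratio of Ezh1 to Ezh2 per kb was 0.385 and 0.367 in cardiomyocytes, against 0.554 and 0.552 in fresh fibroblasts. Ezh1, known for its role in resting cells, was the lower enzyme per kb in all 6 groups, cultured and fresh. Its mean ratio to Ezh2 ran from 0.376 in cardiomyocytes to 0.603 with MGT alone. This order depends on the exon lengths used, since in scaled CPM Ezh1 was above Ezh2 in fresh fibroblasts.

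Among the PRC1 genes, Bmi1 had 45.2 and 44.6 scaled CPM in cardiomyocytes, against 38.0 and 38.8 in fresh fibroblasts (log2 fold change 0.22, SE 0.0486, limma adjusted p = 0.00037). Cbx7 had 1.85 and 1.501 scaled CPM in cardiomyocytes, against 2.79 and 2.88 in fresh fibroblasts (log2 fold change -0.62, SE 0.123, limma adjusted p = 0.00015). Ring1 and Rnf2 did not pass, with log2 fold changes of 0.06 and -0.09 (limma adjusted p = 0.383 and 0.13). The ratio of Ring1 to Rnf2 per kb was 0.453 and 0.463 in cardiomyocytes and 0.401 and 0.419 in fresh fibroblasts.

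The demethylases were called in opposite directions. Kdm6a had 68.2 and 69.9 scaled CPM in cardiomyocytes, against 61.3 and 60.8 in fresh fibroblasts (log2 fold change 0.18, SE 0.045, limma adjusted p = 0.00156). Kdm6b had 232 and 233 scaled CPM in cardiomyocytes, against 259 and 268 in fresh fibroblasts (log2 fold change -0.18, SE 0.0423, limma adjusted p = 0.00071). Sizes of this order were exceeded by 74% and 73.1% of all genes tested. Unlike Kdm6a, 3 of the 5 sex-linked genes were lower in cardiomyocytes and 1 was higher, and Uty stood at -0.44 on the log2 scale.

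Of the other genes in this comparison, 8 of 23 PRC1 genes were higher in cardiomyocytes and 8 lower, with Pcgf5 at 13.3 and 13.3 scaled CPM against 3.89 and 3.91 in fresh fibroblasts (log2 fold change 1.65). The chromobox gene Cbx8 was higher by 0.89, and Phc3 was lower by -0.78. Of 8 other PRC2 genes 3 were higher and 3 lower, with the histone-binding subunits Rbbp4 and Rbbp7 at 0.37 and 0.34, Mtf2 at 0.23 and Phf19 at -0.39. Of 11 COMPASS genes 9 were lower and 1 was higher (median -0.36), and of 7 genes for deubiquitinases and their cofactors 4 were lower and 3 higher. Kmt2d had 191 and 197 scaled CPM in cardiomyocytes, against 319 and 335 in fresh fibroblasts (log2 fold change -0.75).

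**Figure D5:**
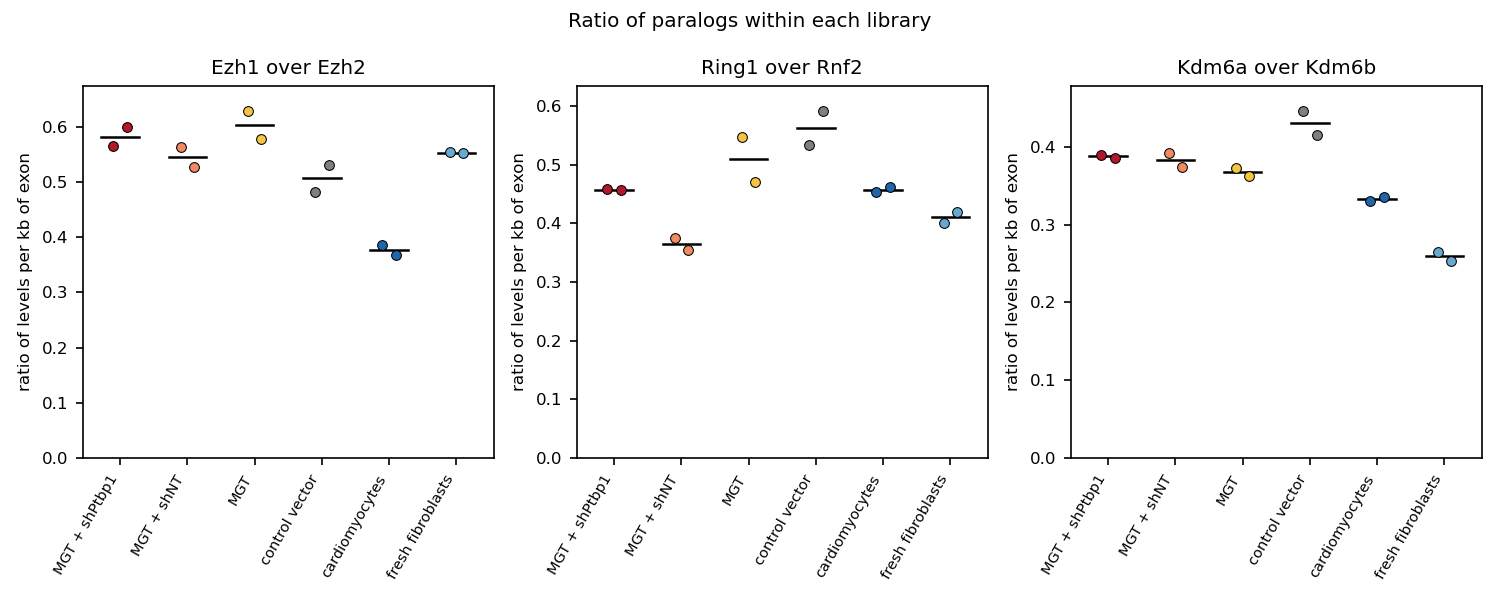
Ratio of levels per kb of exon for 3 pairs of paralogues within each library (vertical axis, from 0), by group; points are libraries and lines are means of 2. Ezh1 over Ezh2 is lowest in cardiomyocytes, Ring1 over Rnf2 is lowest with MGT and shNT, and Kdm6a over Kdm6b is lowest in fresh fibroblasts.

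The Polycomb genes differed little between MGT cultures and control vector cultures at day 3. Against control vector cultures, Kdm6b, Ezh1 and Bmi1 were higher with MGT alone and Suz12 was lower, 3 and 1 of 10 genes. Of all genes tested 17.9% were called higher, 17.7% lower and 35.6% in either direction. Tbx5 stood at 1770 and 1847 scaled CPM with MGT alone and 645 and 678 with control vector. Mef2c stood at 720 and 761 scaled CPM with MGT alone and 313 and 331 with control vector, and Gata4 at 683 and 701 with MGT alone and 341 and 375 with control vector.

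Kdm6b had 94.8 and 100.1 scaled CPM with MGT alone, against 76.5 and 83.9 with control vector (log2 fold change 0.28, SE 0.0423, limma adjusted p = 3.97e-05). The groups did not overlap, which held for 66.4% of all genes. Its call held in every alternative tried, while those of the other 3 genes did not. Kdm6a had 31.5 and 32.4 scaled CPM with MGT alone, against 30.4 and 31.1 with control vector (log2 fold change 0.05, SE 0.045, limma adjusted p = 0.373). The ratio of Kdm6a to Kdm6b per kb was 0.373 and 0.363 with MGT alone, against 0.446 and 0.415 with control vector.

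Bmi1, the reprogramming barrier, had 41.0 and 44.8 scaled CPM with MGT alone, against 39.3 and 38.0 with control vector (log2 fold change 0.15, SE 0.0486, limma adjusted p = 0.0235). The call was lost without MGT replicate 2 (Bmi1 log2 fold change 0.09, limma adjusted p = 0.298), without control vector replicate 2 (0.12, limma adjusted p = 0.126) and without the filter on low values (0.15, limma adjusted p = 0.0506). Ezh1 had 31.2 and 30.0 scaled CPM with MGT alone, against 26.97 and 27.7 with control vector (log2 fold change 0.16, SE 0.0474, limma adjusted p = 0.0131). The Ezh1 call was lost without control vector replicate 1 (0.14, limma adjusted p = 0.0656) and without MGT replicate 1 (0.13, limma adjusted p = 0.102).

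Suz12 had 37.7 and 39.1 scaled CPM with MGT alone, against 42.0 and 43.4 with control vector (log2 fold change -0.15, SE 0.0433, limma adjusted p = 0.0102). The Suz12 call was lost without control vector replicate 2 (-0.13, limma adjusted p = 0.0663) and without MGT replicate 1 (-0.13, limma adjusted p = 0.0917). Rnf2 overlapped, with 50.9 and 53.5 scaled CPM with MGT alone and 51.4 and 44.0 with control vector (log2 fold change 0.13, limma adjusted p = 0.0643). Without control vector replicate 1, Rnf2 was called higher (0.24, limma adjusted p = 0.000652). Ezh2, Eed, Ring1 and Cbx7 did not pass, with log2 fold changes of -0.09, 0.06, -0.01 and -0.04.

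In the same comparison, 6 of 23 other PRC1 genes were higher and 1 was lower. Auts2, a partner of variant PRC1, had 86.7 and 91.8 scaled CPM with MGT alone, against 58.1 and 58.2 with control vector (log2 fold change 0.61, limma adjusted p = 8.77e-10), followed by Bcorl1, Pcgf2 and E2f6 at 0.36, 0.32 and 0.30. Cdkn2a was lower with MGT alone, at 0.625 and 0.713 scaled CPM against 0.947 and 1.24 with control vector (log2 fold change -0.44, SE 0.168, limma adjusted p = 0.0468), and Cdkn1a was higher by 0.18. The Cdkn2a call lies close to the threshold and rests on values near or below the filter of 1 CPM. It was not checked with libraries left out. None of the 9 Hox genes tested was called. Of the proliferation list, 13 of 20 genes were lower and none was higher.

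Cell type markers differed between MGT alone and control vector too. Of 8 cardiomyocyte markers 6 were higher with MGT alone and none was lower, with sums of 3361 to 3540 scaled CPM with MGT alone and 2395 to 2613 with control vector. Of 8 fibroblast markers 6 were lower and 1 was higher, with sums of 14903 to 15154 with MGT alone and 18340 to 20519 with control vector. Of 7 endothelial markers 5 were lower and none was higher, with sums of 80.1 to 87.9 with MGT alone and 113 to 119 with control vector. Of 5 epicardial markers 3 were lower and none was higher, with sums of 71.8 to 72.9 with MGT alone and 103 in both control libraries. Of 6 macrophage markers 3 were lower and 1 was higher, with sums of 1051 to 1063 with MGT alone and 977 to 994 with control vector. Of 6 smooth muscle markers 2 were higher and 1 was lower, with sums of 6078 to 6598 with MGT alone and 5608 to 5874 with control vector. No marker of these lists was at 0, and their part in the changes of the 10 genes was not tested.

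Most of the Polycomb genes were higher where the non-targeting lentiviral hairpin had been added to MGT. With shNT, 8 of 10 genes were higher than with MGT alone and none was lower, against 24.6% of all genes called higher, 20.1% lower and 44.7% in either direction. The median log2 fold change of the 10 was 0.24, against 0.023 over all genes. The delivered factors and the cell type markers moved beside these genes, and their part in the result was not tested. Of 8 fibroblast markers 3 were higher with shNT and 1 was lower, and of 8 cardiomyocyte markers 2 were higher and 1 was lower. Of 5 epicardial markers 2 were higher and 1 was lower, and of 6 smooth muscle markers 1 was higher and 2 were lower. Mef2c, Tbx5 and Gata4 were lower with shNT by -0.65, -0.22 and -0.12 on the log2 scale. The 6 macrophage markers were all lower, with sums of 421 to 425 scaled CPM with shNT and 1051 to 1063 with MGT alone, and none at 0. Of 7 endothelial markers 5 were higher with shNT and 1, Vwf, was lower, with sums of 97.0 to 103 scaled CPM with shNT and 80.1 to 87.9 with MGT alone, and none at 0.

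The demethylases changed most. Kdm6a had 43.5 and 41.1 scaled CPM with shNT, against 31.5 and 32.4 with MGT alone (log2 fold change 0.40, SE 0.045, limma adjusted p = 6.56e-07). Kdm6b had 124.6 and 123 scaled CPM with shNT, against 94.8 and 100.1 with MGT alone (log2 fold change 0.34, SE 0.0423, limma adjusted p = 2.02e-06). Neither gene overlapped between the groups, as for 72.7% of all genes. The Y-linked Uty, Ddx3y, Eif2s3y and Kdm5d were also higher with shNT, by 0.40, 0.41, 0.32 and 0.30, and the part of the sex of the cells in the Kdm6a result was not tested.

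In PRC1, Rnf2 had 63.4 and 66.2 scaled CPM with shNT, against 50.9 and 53.5 with MGT alone (log2 fold change 0.31, SE 0.0543, limma adjusted p = 0.000123). Bmi1 had 50.6 and 54.1 scaled CPM with shNT, against 41.0 and 44.8 with MGT alone (log2 fold change 0.28, SE 0.0486, limma adjusted p = 9.43e-05), and these were the highest Bmi1 levels of the series. Ring1 pointed the other way, with 14.5 and 14.3 scaled CPM with shNT, against 16.9 and 15.3 with MGT alone (log2 fold change -0.16, SE 0.0657, limma adjusted p = 0.0587). Ring1 was called lower by edgeR on the recovered reads (-0.19, adjusted p = 0.0236), in fits of fewer libraries (-0.18, limma adjusted p = 0.0204 with the 4 libraries compared and 0.0368 with the day 3 libraries) and without MGT replicate 2 (-0.23, limma adjusted p = 0.0297). The ratio of Ring1 to Rnf2 per kb was 0.375 and 0.355 with shNT, against 0.547 and 0.471 with MGT alone.

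In PRC2, Ezh2 had 27.6 and 29.6 scaled CPM with shNT, against 22.8 and 23.9 with MGT alone (log2 fold change 0.28, SE 0.0574, limma adjusted p = 0.000488). Suz12 and Eed were higher by 0.19 and 0.18 (limma adjusted p = 0.00174 and 0.00405), without overlap of the groups. Ezh1 was higher by 0.14 (SE 0.0474, limma adjusted p = 0.0204), a call lost by edgeR (0.12, adjusted p = 0.0566), with only the day 3 libraries (0.12, limma adjusted p = 0.0765), and without MGT replicate 2, shNT replicate 1 or shNT replicate 2 (limma adjusted p = 0.133, 0.0709 and 0.0876). Cbx7 overlapped (log2 fold change 0.05, limma adjusted p = 0.762). Of the 20 proliferation genes, 7 were lower with shNT and 2 were higher, and their part in the Ezh2 result was not tested.

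The other PRC1 genes went the same way, with 13 of 23 higher and none lower, led by Scml2, Cbx2, Scmh1 and Pcgf2 at log2 fold changes of 0.71, 0.35, 0.34 and 0.32. The other PRC2 genes were split, 2 higher and 2 lower of 8, with Phf1 at 0.19, Rbbp4 at 0.11, Rbbp7 at -0.15 and Jarid2 at -0.20. Of 11 COMPASS genes 4 were higher and none was lower, and 1 of the 9 Hox genes tested, Hoxb3, was higher by 0.35. Cdkn1c had 12.8 and 14.1 scaled CPM with shNT, against 6.49 and 6.50 with MGT alone (log2 fold change 0.99, limma adjusted p = 8.28e-11), and Cdkn2a did not pass.

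Silencing Ptbp1, an RNA-binding protein that represses many exons, was compared with the non-targeting hairpin. With shPtbp1, 5 of 10 genes were lower than with shNT and none was higher, against 18.1% of all genes called lower, 16.7% higher and 34.8% in either direction. The median log2 fold change of the 10 was -0.14, against -0.0011 over all genes. The 5 genes were Kdm6b, Kdm6a, Suz12, Rnf2 and Ezh2, and each of them was also among the 8 that were higher with shNT than with MGT alone, a comparison that shares the shNT libraries.

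Kdm6b had 101 and 97.0 scaled CPM with shPtbp1, against 124.6 and 123 with shNT (log2 fold change -0.32, SE 0.0423, limma adjusted p = 9.61e-06). Kdm6a had 35.1 and 33.4 scaled CPM with shPtbp1, against 43.5 and 41.1 with shNT (log2 fold change -0.30, SE 0.045, limma adjusted p = 4.01e-05). Both were below shNT without overlap, as for 65.4% of all genes, and both calls held in every alternative tried. Of the sex-linked genes, Eif2s3y was higher by 0.25 while Ddx3y and Xist were lower by -0.17 and -0.28.

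Suz12 had 35.6 and 35.6 scaled CPM with shPtbp1, the lowest of the series, against 44.9 and 42.6 with shNT (log2 fold change -0.29, SE 0.0433, limma adjusted p = 3.38e-05). Of all genes tested, 16.9% had a larger absolute change. Ezh2 had 25.7 and 24.6 scaled CPM with shPtbp1, against 27.6 and 29.6 with shNT (log2 fold change -0.18, SE 0.0574, limma adjusted p = 0.0183). The Ezh2 call was lost without shNT replicate 2 (-0.13, limma adjusted p = 0.188) and without shPtbp1 replicate 2 (-0.15, limma adjusted p = 0.119). Eed had 40.8 and 41.9 scaled CPM with shPtbp1 and 41.6 and 41.4 with shNT, and overlapped (log2 fold change -0.0059, SE 0.0461, limma adjusted p = 0.944). The Ezh1 value, -0.09 on the log2 scale, did not pass (limma adjusted p = 0.153).

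Proliferation genes also differed between shPtbp1 and shNT. Of the 20 proliferation genes, 17 were lower with shPtbp1 than with shNT and none was higher, with sums of 907 to 914 scaled CPM with shPtbp1 and 1076 to 1079 with shNT. Tyms, E2f2, Bub1 and Aurkb were lower by -0.48, -0.47, -0.45 and -0.40. In control vector over fresh fibroblasts (15 of the 20 lower, 2 higher), Ezh2 and Suz12 were at -0.60 and -0.15 on the log2 scale. They were at -0.09 and -0.15 in MGT over control vector (13 lower). They were at 0.28 and 0.19 with shNT over MGT alone (7 lower, 2 higher). With shPtbp1 over MGT alone they were at 0.10 and -0.11 (18 lower). Cardiomyocytes over fresh fibroblasts had -0.05 and 0.48 (9 lower, 7 higher). Among these values, Ezh2 was not called in MGT over control vector or in cardiomyocytes over fresh fibroblasts. Neither gene was called with shPtbp1 over MGT alone. The part of proliferation or of the E2F words in the Suz12 and Ezh2 results was not tested.

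In PRC1, Rnf2 had 56.1 and 55.1 scaled CPM with shPtbp1, against 63.4 and 66.2 with shNT (log2 fold change -0.22, SE 0.0543, limma adjusted p = 0.00417). Bmi1 had 48.2 and 49.2 scaled CPM with shPtbp1, against 50.6 and 54.1 with shNT, without overlap but without a call (log2 fold change -0.10, SE 0.0486, limma adjusted p = 0.114). Ring1 had 15.6 and 15.3 scaled CPM with shPtbp1, against 14.5 and 14.3 with shNT (log2 fold change 0.10, SE 0.0657, limma adjusted p = 0.252). Cbx7 overlapped, with 0.02 on the log2 scale (limma adjusted p = 0.908).

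Of 23 other PRC1 genes, 6 were lower with shPtbp1 and 1 was higher, with Scml2, Cbx2 and Scmh1 at log2 fold changes of -0.65, -0.30 and -0.24 and Cbx6 at 0.28. Of 8 other PRC2 genes, 2 were higher, Jarid2 by 0.27 and Rbbp7 by 0.22, and none was lower. Of 11 COMPASS genes 5 were lower and 1 was higher. Of the kinase inhibitors, Cdkn1c and Cdkn2b were lower by -0.72 and -0.36, and none was higher. None of the 9 Hox genes was called. Macrophage markers were lower in 4 of 6, with sums of 361 scaled CPM in both shPtbp1 libraries and 421 to 425 with shNT. Of 8 cardiomyocyte markers 6 were higher with shPtbp1 and none was lower, with sums of 4177 to 4490 scaled CPM with shPtbp1 and 3490 to 3759 with shNT. Of 8 fibroblast markers 4 were higher and none was lower, with sums of 14685 to 16149 with shPtbp1 and 14006 to 14592 with shNT. Of 5 epicardial markers 3 were lower and none was higher, with sums of 79.9 to 87.1 with shPtbp1 and 93.5 to 95.5 with shNT. No marker of these lists was at 0, and their part in these results was not tested.

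Against MGT alone, the libraries with shPtbp1 differed in fewer of the 10 genes. This comparison was added after the values were seen, and it shares the MGT libraries with the shNT comparison above. Bmi1 was higher with shPtbp1, at 48.2 and 49.2 scaled CPM against 41.0 and 44.8 with MGT alone (log2 fold change 0.18, SE 0.0486, limma adjusted p = 0.00515). Eed was higher, at 40.8 and 41.9 scaled CPM against 36.0 and 37.3 with MGT alone (log2 fold change 0.17, SE 0.0461, limma adjusted p = 0.00521). These were 2 of 10 genes higher and none lower, against 24.3% and 20% of all genes and 44.3% in either direction. Without MGT replicate 1 neither was called (Bmi1 0.12, limma adjusted p = 0.113; Eed 0.15, limma adjusted p = 0.0598).

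Kdm6b with shPtbp1 overlapped MGT alone, at 101 and 97.0 scaled CPM against 94.8 and 100.1 with MGT alone. Kdm6a, which did not overlap (as for 69.4% of all genes), was not called, at 35.1 and 33.4 scaled CPM with shPtbp1 against 31.5 and 32.4 with MGT alone. Suz12 had 35.6 and 35.6 scaled CPM with shPtbp1, against 37.7 and 39.1 with MGT alone (log2 fold change -0.11, SE 0.0433, limma adjusted p = 0.0529). Suz12 was called lower with edgeR (-0.13, adjusted p = 0.0243), upper-quartile scaling (-0.11, limma adjusted p = 0.0399), no filter (-0.11, limma adjusted p = 0.0447), the 4 libraries compared (-0.13, limma adjusted p = 0.0398) and the day 3 libraries (-0.13, limma adjusted p = 0.0397). In this comparison 10 of 23 other PRC1 genes were higher and none was lower, 18 of 20 proliferation genes were lower, and 6 of 6 macrophage markers were lower.

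Across the 12 libraries, the genes fell into patterns that are given here as descriptions, since the libraries share 6 groups and the fresh libraries stand apart. The log2 levels of Kdm6a and Kdm6b had a Pearson r of 0.974, those of Ezh2 and Kdm6a 0.962, and those of Ezh2 and Kdm6b 0.961. Eed ran against them, with r of -0.722 to Ezh2, and was closest among the 10 to Bmi1, with r of 0.77. Suz12 had r of 0.85 to Kdm6a and 0.777 to Ezh2. Among 10816 genes searched, the closest to Ezh2 were Gja5, Mier1 and Sart1 (0.987, 0.981 and 0.98). The closest to Suz12 were Atg14, Smc4 and Dyrk2 (0.995, 0.983 and 0.981), and the closest to Eed were Cops2, Kcnj5 and Ubxn4 (0.99, 0.99 and 0.988).

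The closest genes to Kdm6a were Pcf11, Scmh1 and Zfp664, with r of 0.994, 0.992 and 0.992, and Scmh1 is itself on the list of other PRC1 genes. The closest to Kdm6b were Pom121, Crebbp and Bcl9, each with r of 0.993. Ezh1 had Phf21a, Klf3 and Prr12 closest (0.989, 0.987 and 0.986). For the other genes the best likeness was lower: Rnf2 with Glyr1, Ppp2r2d and Mbnl3 (0.964, 0.945 and 0.94), Bmi1 with Rbpms2, Brwd3 and N4bp1 (0.958, 0.95 and 0.949), Cbx7 with Arhgef11, Fam189b and Ppard (0.929, 0.929 and 0.912), and Ring1 with Cdkn2aipnl and Rnf20 (0.915 and 0.905).

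Reads of opposite-strand genes could enter the counts of some members, since the strand setting of the counting is not given in the sources used here. In the GENCODE annotation, an opposite-strand noncoding gene covered 12.6% of the exon bases of Eed, 4.3% of Kdm6b, 4.07% of Suz12 and 3.28% of Ezh2. The other 6 genes shared no exon base with another gene.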

How the data were processed

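Polyadenylated RNA of 12 libraries in 6 groups of 2 was analysed from 1 deposited table of CPM for 23423 genes, whose 12 column names each match 1 sample title. FastQC, TopHat2 2.1.0, HTSeq 0.6.1p1 and the mm10 build are named, per the submitters' processing notes. Which gene annotation and strand setting served for counting is not given in the sources used here. In 27 rows the gene name had become a number, and these rows stayed in the tests unnamed.

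Each library's deposited CPM were scaled by its median-of-ratios factor. The filter asked for 1 CPM in 2 libraries and left 13977 genes. A limma 3.58.1 model (R 4.3.3, eBayes with trend) of log2(scaled CPM + 0.5) estimated a mean for each group over the 12 libraries. Two-sided p-values were adjusted by the Benjamini-Hochberg method over all genes of a comparison, with a threshold of 0.05. With 2 libraries a group the smallest exact permutation p is 0.333, and no such test was run. Dividing by the CPM of 1 read gave whole numbers (to within 0.1) for 100% of values. On these recovered reads edgeR 4.0.16 (quasi-likelihood test) called 10683 genes between cardiomyocytes and fresh fibroblasts, 12187 between control cultures and fresh fibroblasts, 5156 between MGT and control vector, 6166 between shNT and MGT alone, 4936 between shPtbp1 and shNT and 6050 between shPtbp1 and MGT alone. The fit was tested on simulated data.

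The 10 genes and all lists were chosen with earlier results of these data known, and the comparison of shPtbp1 with MGT alone was added after seeing the data. All 10 genes are named; of every other list, counts and up to 4 called genes with the largest absolute change; of each member, the 3 genes with the highest Pearson r among those with at least 10 scaled CPM in a group mean; predicted genes are not named, and 2 genes that the rule picks are not reported here. Genes outside this rule (Uty, Ddx3y, Xist, the delivered factors and Cdkn2a where not called) were named after their values were seen. Exon lengths, positions and overlaps come from GENCODE M21 basic (GRCm38), and promoter sequences from RefSeq (GRCm38.p6). Isoforms and splicing were not analysed here.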

Additional observations from a re-analysis of the deposited data

How the results depend on the processing

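Each count of called genes was recomputed without scaling, with upper-quartile or quantile scaling, a pseudocount of 0.1 or 2, without the filter or with one at 5 CPM, a robust prior, fewer libraries, edgeR on recovered reads and each library left out in turn. With each library left out, the count of the 10 genes called was 7 for cardiomyocytes against fresh fibroblasts, 7 to 8 for control vector against fresh fibroblasts, 2 to 4 for MGT against control vector, 7 to 8 for shNT against MGT alone, 4 to 5 for shPtbp1 against shNT and 0 to 2 for shPtbp1 against MGT alone. The count of 2 arose without control vector replicate 2 or without MGT replicate 1, and the count of 0 without MGT replicate 1. The filter at 5 CPM removed Cbx7, which gave 6 and 7 called genes in the comparisons with fresh fibroblasts. Replicate numbers gave no pairing beyond the shared number (correlations of deviations from -0.136 to 0.162), and with the replicate number as a block the counts were 7, 8, 4, 8, 5 and 2 in the order above, unchanged. Without scaling, the median of all genes moved by -0.109 in control vector against fresh fibroblasts. Signs turned for values that were not called, apart from Cbx7 with quantile normalization (0.16), and the cause was not tested. In control vector against fresh fibroblasts, Bmi1 was -0.10 without scaling, -0.0071 with the 4 libraries compared and -0.011 to 0.038 with each library left out, and Ring1 was 0.017 with quantile normalization and -0.082 to 0.0017 with each library left out. In MGT against control vector, Ring1 was 0.0041 with quantile normalization and -0.082 to 0.059 with each library left out, and Cbx7 was -0.16 to 0.073. The Cbx7 range was -0.050 to 0.16 in shNT against MGT alone, -0.037 to 0.086 in shPtbp1 against shNT and -0.025 to 0.18 in shPtbp1 against MGT alone. The Eed range in shPtbp1 against shNT was -0.026 to 0.013. In shPtbp1 against MGT alone, Ring1 ranged over -0.12 to 0.014, and Kdm6b was -0.0038 with the 4 libraries compared, -0.00057 with the day 3 libraries and -0.014 to 0.064 with each library left out. Depth limits Cbx7 most, with 95 reads in its shallowest library.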
